A study of Mus musculus with 17 samples.

Results

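Inhibitory receptors on T cells are switched on by ligands that tumor cells and myeloid cells of the tumor carry, and 9 genes for such ligands were read here in mesothelioma tumors of the mouse: Cd274, Pdcd1lg2, Lgals9, Lgals3, Pvr, Nectin2, Ceacam1, Vsir and Cd276. They are the rows of the count matrix whose Ensembl ID carries one of these symbols in the Gencode vM21 annotation. All 9 were found among the 55450 genes of the matrix, and all 9 passed the filter on low counts in every comparison. The rule itself uses no measured value.

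AB12 is a mesothelioma cell line derived from the BALB/c mouse strain, and in this study AB12 cells were injected into the peritoneum of BALB/c mice that were 8 weeks old and female. Untreated tumors were taken from 3 mice at d6, 5 mice at d10 and 3 mice at d14, counted in days from the injection, which the study calls the early, intermediate and advanced phases of growth. Tumors of mice treated with anti CTLA-4 (clone 9D9, a blocking antibody given into the peritoneum) were taken from 3 mice at d10 and from 3 at d14. Each injection held 200 µg. The labels give 4 injections over 2 weeks, whereas the study's text gives d6 and d10 for the mice with treated d14 tumors, and the sources used here do not settle this or say which injections preceded the treated d10 tumors. No group received a control antibody. All the tumors come from 1 cell line in 1 strain, and whole tumors were sequenced with their stroma and leukocytes, 1 tumor of 1 mouse per library.

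Each of these ligands belongs to a small circuit. PD-L1, made from Cd274, and PD-L2, made from Pdcd1lg2, bind PD-1 and dampen signaling from the T cell receptor. PD-L1 is a textbook target of interferon gamma and is carried by tumor cells and myeloid cells, whereas PD-L2 is mostly a product of macrophages and dendritic cells. Galectin 9 (Lgals9) and CEACAM1 (Ceacam1) have been described as partners of TIM-3, and galectin 3 (Lgals3) as a partner of LAG-3. Between them, PVR, also called CD155, and Nectin-2, also called CD112, bind the activating receptor DNAM-1 (Cd226) and the inhibitory receptors TIGIT, CD96 and PVRIG. Not each of these ligands binds every one of these receptors. VISTA (Vsir) is found on myeloid cells and T cells, and B7-H3 (Cd276) is carried by many solid tumors and their stroma, with no receptor that is generally agreed on.

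The 9 genes are protein coding and lie on 6 chromosomes of the GRCm38 build. Cd274 (ENSMUSG00000016496.7, chr19:29367455-29388095, plus strand) and Pdcd1lg2 (ENSMUSG00000016498.10, chr19:29410919-29471161, plus strand) are neighbors with 22823 bases between them. Nectin2 (ENSMUSG00000062300.14, chr7:19716644-19750483), Pvr (ENSMUSG00000040511.14, chr7:19903578-19921160) and Ceacam1 (ENSMUSG00000074272.10, chr7:25461707-25477603) share the minus strand of chromosome 7, with 153094 bases between Nectin2 and Pvr. Lgals9 (ENSMUSG00000001123.15) lies at chr11:78962974-78984946 on the minus strand, and Lgals3 (ENSMUSG00000050335.17) at chr14:47367751-47386160 on the plus strand. Vsir (ENSMUSG00000020101.14) lies at chr10:60346851-60372684 on the plus strand, and Cd276 (ENSMUSG00000035914.11) at chr9:58524298-58555437 on the minus strand.

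The promoter windows of 3 members are printed because the data bear on them: Cd274 and Pdcd1lg2 are neighbors that did not change alike between the groups, and Lgals9 is the member that fell most after d6. Each window holds 300 bases around the start site in RefSeq (GRCm38.p6), most of them before it, 5′ to 3′ on the strand of the gene. The capitals mark matches to the interferon-stimulated response element (ISRE), the core that interferon regulatory factors bind.
Cd274 (chr19:29367188-29367487, plus strand): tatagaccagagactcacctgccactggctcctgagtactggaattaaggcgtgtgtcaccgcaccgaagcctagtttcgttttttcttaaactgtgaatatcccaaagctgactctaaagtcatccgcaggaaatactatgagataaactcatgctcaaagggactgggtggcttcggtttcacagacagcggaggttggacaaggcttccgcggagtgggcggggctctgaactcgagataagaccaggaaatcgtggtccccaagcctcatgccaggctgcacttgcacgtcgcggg
Pdcd1lg2 (chr19:29410669-29410968, plus strand): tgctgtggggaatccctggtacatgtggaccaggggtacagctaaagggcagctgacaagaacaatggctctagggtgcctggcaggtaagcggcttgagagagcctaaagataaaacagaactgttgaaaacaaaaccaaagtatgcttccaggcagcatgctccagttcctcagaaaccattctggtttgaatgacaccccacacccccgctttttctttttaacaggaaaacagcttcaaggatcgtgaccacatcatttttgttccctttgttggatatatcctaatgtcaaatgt
Lgals9 (chr11:78984875-78985174, minus strand): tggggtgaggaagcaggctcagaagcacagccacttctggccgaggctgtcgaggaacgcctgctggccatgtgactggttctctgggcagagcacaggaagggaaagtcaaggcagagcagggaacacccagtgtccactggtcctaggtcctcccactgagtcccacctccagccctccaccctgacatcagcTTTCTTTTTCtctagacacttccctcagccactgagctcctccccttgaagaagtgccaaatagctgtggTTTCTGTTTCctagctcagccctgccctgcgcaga
RefSeq windows were found for 8 of the 9 members, all but Pvr. They were searched on both strands for the ISRE core, for TTCNNNGAA, the core that STAT dimers bind, and for a site of the NF-kappa-B type. Lgals9 held the only matches of the 8 windows, both to the ISRE core on the opposite strand, at 55 bases before and 15 bases after the start site, and they do not overlap. Among all 32851 windows of that length, 3.44% held the ISRE core, 8.3% TTCNNNGAA and 0.411% the NF-kappa-B type site. A match is a run of letters and not a bound site, and the windows without one are short.

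Libraries held 46371577 to 96759833 counts (median 72413343), so that the least abundant member, Ceacam1, was still read with 286 to 1122 counts. Within groups the libraries differed by far more than sampling noise. Pseudogenes and small RNA genes, 276 in all, split the libraries into 3 sets that do not follow the groups. The first held the d6 tumors and replicates 1 to 3 of untreated d10, the next held replicates 4 and 5 of untreated d10 with the treated d10 tumors, and the last held all d14 tumors. The number of sets was chosen after seeing the data, and the labels used here give no batch. Per the study's methods, libraries were run on a NextSeq500 or a NovaSeq6000 with reads of different length, and genes with a batch effect between sequencing projects were removed from the study's own analysis. Which library belongs to which instrument or project is not given in the sources used here, and no gene was removed from the counts on that ground here. Between replicates 4 and 5 and replicates 1 to 3 of untreated d10, 4376 of 17321 genes (25.3%) passed the test, and so did 2 members, Cd274 with a log2 difference of -0.60 (adjusted p = 0.0124, edgeR) and Lgals9 with 0.42 (adjusted p = 0.0409). The changes from d6 to d10 and the treatment differences at d10 are therefore also given within the set. With these 3 sets, none holds both groups for untreated d14 against d6 or d10, and set and day cannot be told apart. With 2 sets, replicates 4 and 5 of untreated d10 fall together with all d14 tumors, while the d6 tumors stay apart from these. The treated and untreated d14 tumors share the last of the 3 sets. With 4 sets, replicates 1 and 2 of untreated d14 stand alone and replicate 3 stays with the treated tumors, so the number of sets decides whether treatment at d14 runs partly along them. Replicate 3 alone, for which there is no test, had levels of 289 (Cd274), 23.6 (Pdcd1lg2), 67.9 (Nectin2) and 80.1 (Vsir). For these genes the treated and untreated d14 tumors did not overlap. That replicate 3 lay under every treated tumor follows from this and adds nothing to it.

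Per kilobase of exon, Lgals3 was by far the most abundant member, with a mean level of 492 normalized CPM per kilobase (CPM being a gene's counts scaled by the total of its library) and 46.9 to 72.1% of the summed level of the 9 genes in each tumor. Lgals9 followed at 97.5 and Cd274 at 73.4. Nectin2 (31.9), Pdcd1lg2 (25.8), Pvr (21.0), Vsir (20.6) and Cd276 (18.5) lay close together, and their order depends on the length used: by the longest transcript, Pvr (44.2) stood above Nectin2 (40.7). Ceacam1 was the scarcest, at 1.34. The spread over the 17 tumors was widest for Pdcd1lg2, whose highest level was 8.18 times its lowest, and for Lgals9 (4.65 times), and narrowest for Cd276 (1.98 times) and Lgals3 (2.0 times). In whole tumors, fewer cells of a type and less RNA per cell cannot be told apart.

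**Figure D1:**
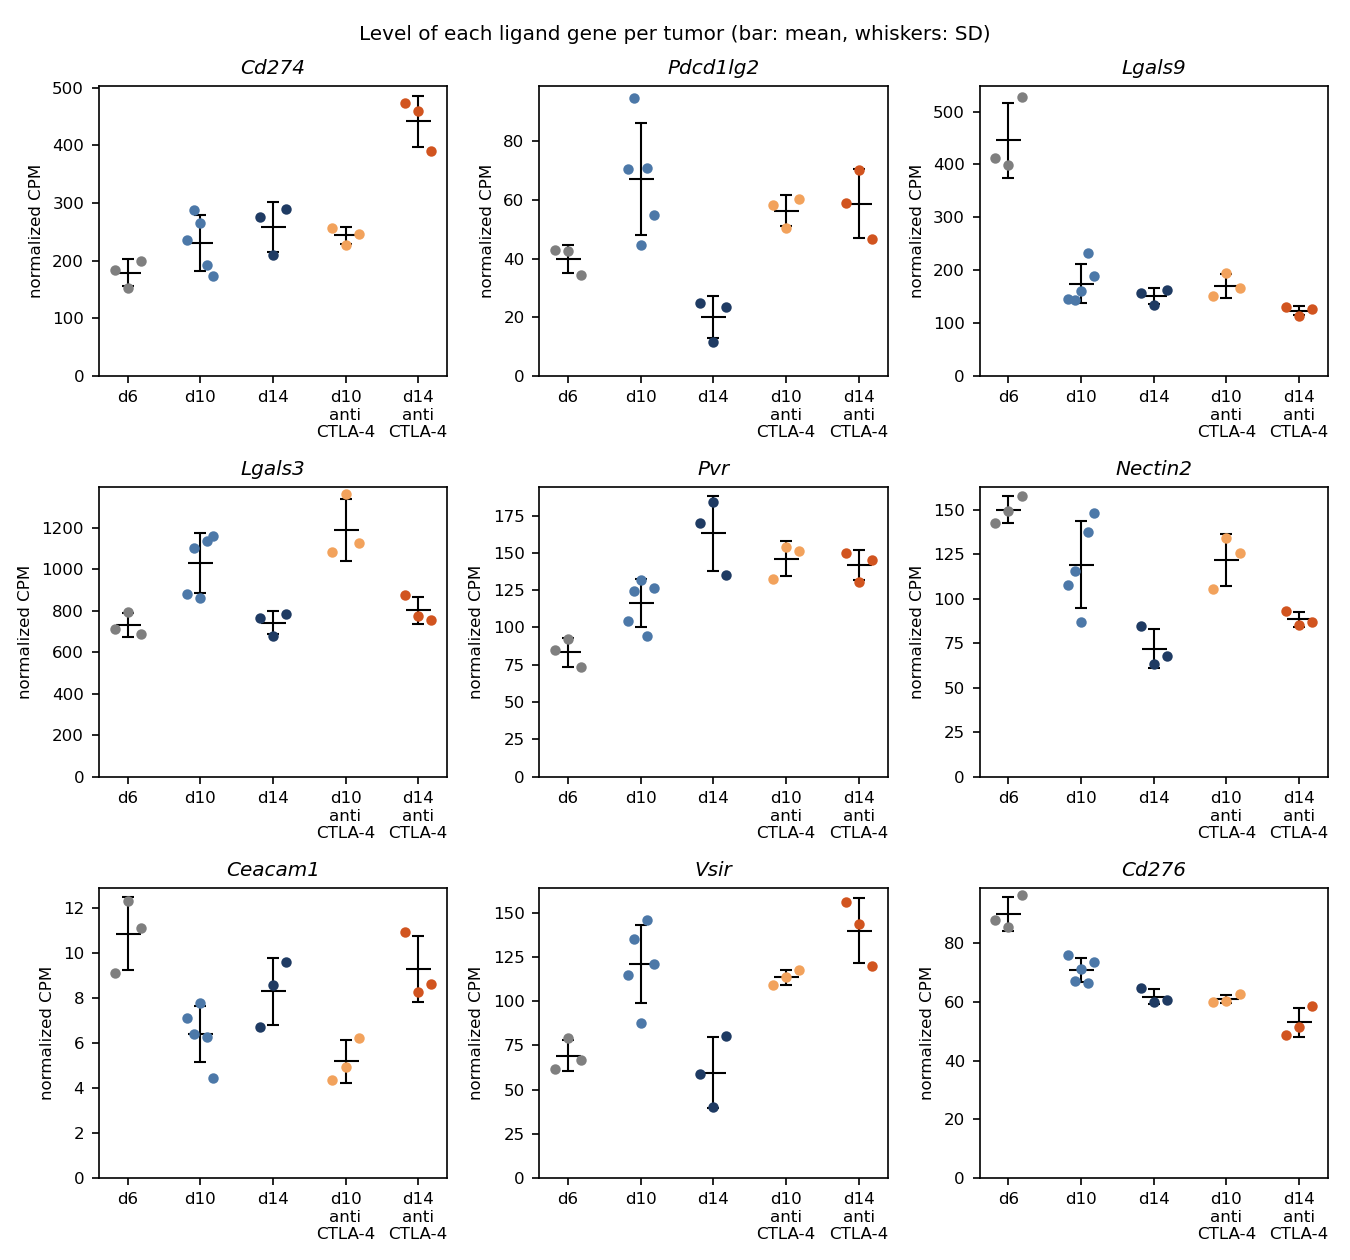
Level of each ligand gene in each of the 17 tumors, in normalized CPM on a linear axis from 0, by group. Points are tumors, the horizontal bar is the mean and the whiskers are the SD. Cd274 stood at 390 to 474 in the treated d14 tumors and at no more than 289 elsewhere, Pdcd1lg2 was lowest in untreated d14 tumors (11.6 to 24.9), and Lgals9 was highest at d6 (399 to 528).

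A gene was said to pass at an adjusted p below 0.05 in edgeR's quasi-likelihood test. From d6 to d10, 7 of the 9 members passed, against 17.5% of the genes tested. Of these, 4 rose, where 10.5% of genes did, and 3 fell, where 7.03% did. From d10 to d14 in untreated tumors 5 passed, against 19.7%, with 1 rise (9.80% of genes) and 4 falls (9.87%). From d6 to d14, 6 passed, against 51.5%, with 2 rises (25.5% of genes) and 4 falls (26.0%), so that the count lies near the background. Between anti CTLA-4 and untreated tumors at d14, 4 of the 9 passed, against 32.4% of genes, and all 4 were higher, as were 17.7% of genes, while 14.8% were lower. At d10 no member passed by edgeR or by DESeq2, where 0.0174% of genes passed by edgeR. An unadjusted p below 0.05 in edgeR was reached by 2 members. The share of all genes under that unadjusted threshold is not given here. This count and those like it below are therefore not read as a result. With a fold change above 2 required as well, Lgals9 alone passed from d6 to d10 (7.45% of genes), Pdcd1lg2 and Vsir from d10 to d14 (7.23%), Lgals9 and Nectin2 from d6 to d14 (19.0%) and Pdcd1lg2 and Vsir under treatment at d14 (11.5%). The median log2 change of the members was 0.37 from d6 to d10 and 0.23 for treatment at d14, where the medians over all genes tested were 0.03 and -0.0043. It was -0.19 from d10 to d14, -0.385 from d6 to d14 and -0.03 for treatment at d10. There the medians over all genes tested were -0.04, 0.01 and -0.01.

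**Figure D2:**
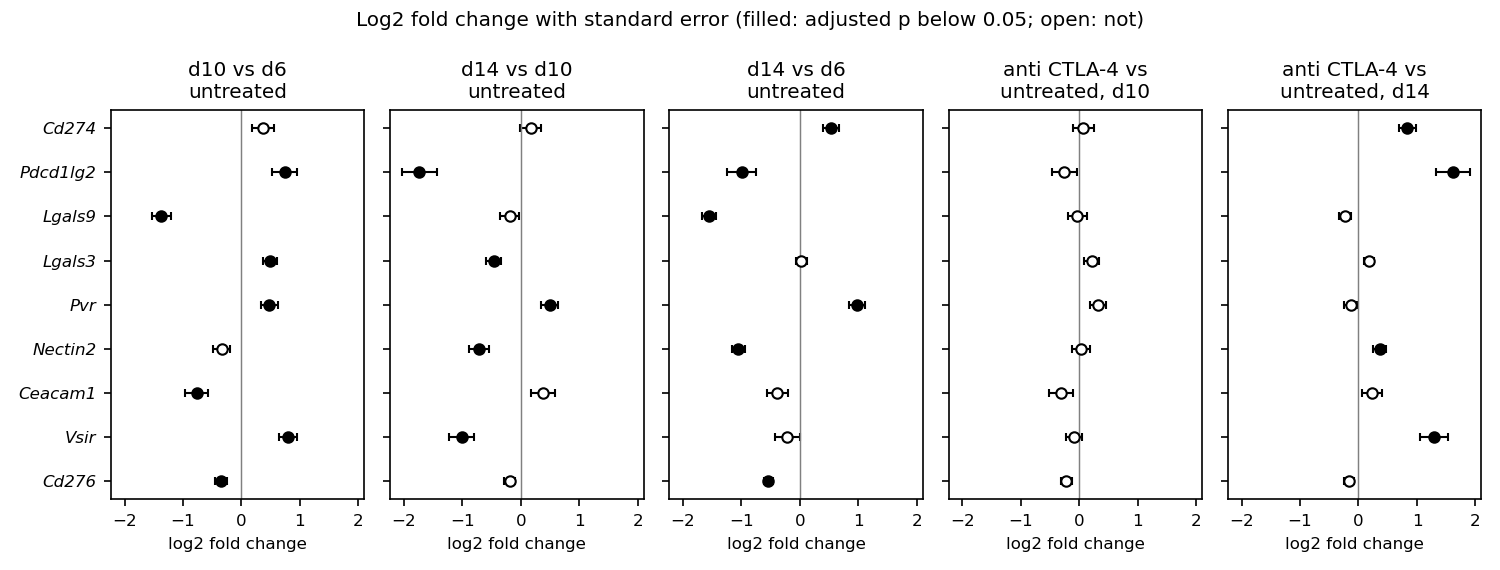
Log2 fold change of each ligand gene in 5 comparisons, with the standard error from edgeR as whiskers. Filled points have an adjusted p below 0.05 and open points do not. The treated against untreated comparison has 4 filled points at d14, all to the right of 0, and none at d10.

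The PD-1 ligands came apart during growth, and both were higher in treated than in untreated tumors at d14. Cd274, which codes for PD-L1, stood at 184, 153 and 199 normalized CPM in the 3 tumors at d6. It stood at 236, 288, 266, 192 and 172 in the 5 untreated tumors at d10, and at 276, 210 and 289 at d14. Each untreated d14 tumor lay above each d6 tumor, while the d10 tumors overlapped both. The log2 change from d6 to d14 was 0.53 (SE 0.14, adjusted p = 0.00999). From d6 to d10 it was 0.37 (SE 0.19) and did not pass (adjusted p = 0.198), with 0.58 (adjusted p = 0.00623) for replicates 1 to 3, which share a library set with d6, and -0.02 (adjusted p = 0.897) for replicates 4 and 5. Between d10 and d14 it was 0.17 (adjusted p = 0.538), and 0.54 (adjusted p = 0.033) against replicates 4 and 5 alone.

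Treated tumors stood at 257, 227 and 247 normalized CPM of Cd274 at d10 and at 474, 460 and 390 at d14. Every treated d14 tumor was above every tumor of the other 4 groups, and next in the order of means came untreated d14, treated d10, untreated d10 and d6, each overlapping its neighbor. At d14 the antibody group was 1.79-fold higher (log2 change 0.84, SE 0.14, adjusted p = 0.00681), and the call held when any single tumor was left out. At d10 the log2 difference was 0.07 (SE 0.18, adjusted p = 0.874), and 0.44 (adjusted p = 0.106) against replicates 4 and 5 of the same library set. The difference between the treatment effects at d14 and d10 was 0.76 (SE 0.25) and narrowly missed the threshold (adjusted p = 0.0504). It was 0.83 (adjusted p = 0.0292) without replicate 4 and 0.85 (adjusted p = 0.0148) without replicate 5 of untreated d10, and with those 2 alone as the untreated d10 tumors it was 0.39 (adjusted p = 0.134).

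Pdcd1lg2, which codes for PD-L2, rose to d10 and then fell below its starting level. Its levels were 42.7, 42.6 and 34.4 normalized CPM at d6 and 70.5, 94.8, 44.5, 70.8 and 54.9 at d10. At d14 they were 24.9, 11.6 and 23.6, lower than in any other tumor of the series. The log2 change was 0.74 (SE 0.22, adjusted p = 0.0417) from d6 to d10, -1.74 (SE 0.30, adjusted p = 0.00796) from d10 to d14 and -1.0 (SE 0.25, adjusted p = 0.00899) from d6 to d14. The fall to d14 held when any single tumor was left out. The rise to d10 was lost without replicate 1, 2 or 3 of d6 or replicate 1, 2 or 4 of d10, with log2 changes of 0.58 to 0.79 and adjusted p of 0.0554 to 0.158. Within the library set of d6 it was 0.82 (adjusted p = 0.0211).

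Under anti CTLA-4, Pdcd1lg2 stood at 58.3, 50.3 and 60.3 normalized CPM at d10 and at 59.1, 70.4 and 46.8 at d14. The treated d14 tumors thus lay within the range of the untreated d10 tumors and above every untreated d14 tumor. They were 3.07-fold higher than untreated tumors at d14 (log2 change 1.62, SE 0.29, adjusted p = 0.00798), the largest change of any member under treatment. At d10 the log2 difference was -0.25 (SE 0.21, adjusted p = 0.598), and -0.14 (adjusted p = 0.589) against replicates 4 and 5. The treatment effects at d14 and d10 differed by 1.86 (SE 0.38, adjusted p = 0.00659), one of 2 members for which that difference passed, where 17.7% of genes passed and 11.9% were higher. With replicates 4 and 5 as the untreated d10 tumors it was 1.75 (adjusted p = 0.00922).

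Set against each other per kilobase, Cd274 exceeded Pdcd1lg2 in every tumor. The ratio was 2.47 ± 0.60 (SD, n = 3) at d6, 1.97 ± 0.71 (n = 5) at d10 and 7.48 ± 2.03 (n = 3) at d14 in untreated tumors, and 2.35 ± 0.12 (n = 3) at d10 and 4.14 ± 0.52 (n = 3) at d14 in treated tumors. The 3 untreated d14 tumors had the highest ratios, from 6.00 to 9.79, with the treated d14 tumors next at 3.54 to 4.52. The log2 difference between untreated d14 and d10 was 1.95, with a two-sided exact permutation p = 0.0179, the smallest that 3 against 5 tumors can give. Adjusted over the 15 comparisons of 3 ligand ratios, which were chosen after their values were seen, it was 0.0893. Between treated and untreated d14 the log2 difference was -0.83, with an exact permutation p = 0.1, the smallest that 3 against 3 can give.

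**Figure D3:**
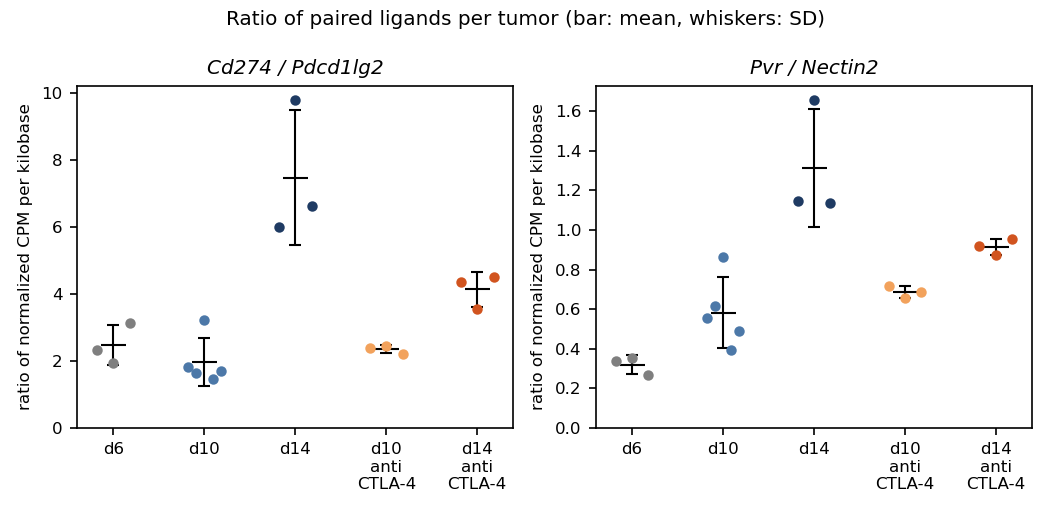
Ratio of Cd274 to Pdcd1lg2 and of Pvr to Nectin2 in each tumor, each gene in normalized CPM per kilobase of exon, on linear axes from 0. Points are tumors, bars are means and whiskers SD. Both ratios were highest in the 3 untreated d14 tumors, at 6.00 to 9.79 and at 1.14 to 1.66.

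Among the galectins, Lgals9 fell early and Lgals3 peaked at d10. Lgals9 stood at 412, 399 and 528 normalized CPM at d6. In the untreated tumors it stood at 145, 144, 160, 231 and 188 at d10 and at 157, 134 and 163 at d14, so that no later tumor came near the d6 level. The log2 change was -1.37 (SE 0.16, adjusted p = 0.000732) from d6 to d10 and -1.56 (SE 0.12, adjusted p = 4.71e-05) from d6 to d14, and both calls held when any single tumor was left out. It was -1.56 (adjusted p = 6e-05) within the library set of d6. From d10 to d14 the log2 change was -0.19 (SE 0.16, adjusted p = 0.413), and -0.44 (adjusted p = 0.0346) against replicates 4 and 5 alone.

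Treated tumors had Lgals9 levels of 151, 195 and 165 normalized CPM at d10 and of 130, 114 and 126 at d14. The treated d14 tumors were the lowest of the series, just under the untreated d14 tumors. The log2 difference at d14 was -0.23 (SE 0.10) and did not pass (adjusted p = 0.0971), although it did without replicate 2 of untreated d14, at -0.32 (adjusted p = 0.028). At d10 it was -0.03 (SE 0.16, adjusted p = 0.945), and -0.28 (adjusted p = 0.286) against replicates 4 and 5.

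Lgals3 was at 710, 795 and 686 normalized CPM at d6, at 880, 1103, 862, 1136 and 1160 at d10 and at 765, 680 and 782 at d14. All 5 untreated d10 tumors were above all d6 and untreated d14 tumors. It rose by 0.49 on the log2 scale (SE 0.12, adjusted p = 0.0247) from d6 to d10 and changed by -0.46 (SE 0.13, adjusted p = 0.0346) from d10 to d14. The end points did not differ detectably, at 0.03 (SE 0.09, adjusted p = 0.831). The rise was lost without replicate 1, 2 or 3 of d6 or replicate 2 of d10, with 0.44 to 0.55 (adjusted p of 0.0523 to 0.115). The fall was lost without replicate 2 or 4 of d10 or any replicate of d14, with -0.49 to -0.41 (adjusted p of 0.0549 to 0.152). Within the library set of d6 the rise was 0.39 (adjusted p = 0.0277).

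Lgals3 stood at 1084, 1362 and 1127 normalized CPM in treated d10 tumors and at 874, 776 and 755 in treated d14 tumors. The treated groups overlapped the untreated tumors of the same day. The log2 difference was 0.21 (SE 0.13, adjusted p = 0.492) at d10, or 0.075 (adjusted p = 0.758) against replicates 4 and 5, and 0.18 (SE 0.09, adjusted p = 0.165) at d14. Per kilobase, Lgals3 exceeded Lgals9 by 1.92 ± 0.40 times (SD, n = 3) at d6 and by 6.95 ± 1.20 times (n = 5) at d10 in untreated tumors.

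Ceacam1, the scarce other partner of TIM-3, stood at 9.11, 12.3 and 11.1 normalized CPM at d6. It stood at 7.08, 6.40, 7.75, 6.27 and 4.42 at d10 and at 6.67, 8.56 and 9.60 at d14 in untreated tumors. Every d10 tumor lay under every d6 tumor, and the log2 change was -0.77 (SE 0.20, adjusted p = 0.0252). That call was lost without replicate 2 or 3 of d6 or replicate 2 of d10, with -0.78 to -0.66 (adjusted p of 0.0503 to 0.11), and within the library set of d6 the log2 change was -0.60 (adjusted p = 0.018). Between d10 and d14 the log2 change was 0.38 (SE 0.21, adjusted p = 0.205). Levels of 4.35, 4.92 and 6.21 at d10 and of 10.9, 8.23 and 8.60 at d14 were read under treatment, with log2 differences of -0.32 (SE 0.21, adjusted p = 0.517) and 0.23 (SE 0.17, adjusted p = 0.336) from untreated tumors. Against replicates 4 and 5 of d10 the former was -0.033 (adjusted p = 0.948). Its near copy Ceacam2, whose reads the counting could confuse with its own, had group means of 0.01 to 0.03 normalized CPM.

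The ligands of the TIGIT family moved in opposite directions as untreated tumors grew, Pvr upward and Nectin2 downward. Pvr stood at 84.6, 92.5 and 73.2 normalized CPM at d6, at 104, 124, 132, 94.5 and 127 at d10 and at 170, 184 and 135 at d14. The d14 tumors were above all the others without treatment, and the d6 tumors below them. The log2 change was 0.48 (SE 0.14, adjusted p = 0.0451) from d6 to d10, 0.50 (SE 0.15, adjusted p = 0.043) from d10 to d14 and 0.97 (SE 0.13, adjusted p = 0.000485) over the whole span. The whole rise held when any single tumor was left out. The first step was lost without any d6 tumor or replicate 1, 2, 3 or 5 of d10, with 0.39 to 0.56 (adjusted p of 0.0614 to 0.172). It was 0.55 (adjusted p = 0.00865) within the library set of d6 and 0.36 (adjusted p = 0.0754) with replicates 4 and 5. The later step was lost without replicate 1, 2 or 4 of d10 or replicate 1 or 2 of d14, with 0.39 to 0.52 (adjusted p of 0.0566 to 0.191).

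Nectin2 stood at 143, 149 and 158 normalized CPM at d6, at 108, 116, 86.9, 137 and 148 at d10 and at 84.5, 63.4 and 67.9 at d14. The d14 tumors were below all the others. The log2 change was -0.34 (SE 0.15, adjusted p = 0.142) from d6 to d10, -0.72 (SE 0.17, adjusted p = 0.0212) from d10 to d14 and -1.06 (SE 0.11, adjusted p = 0.000127) from d6 to d14. The fall from d10 was lost without replicate 2 or 3 of d14, at -0.64 (adjusted p = 0.108) and -0.67 (adjusted p = 0.0701). Within the library set of d6, the change to d10 was -0.52 (adjusted p = 0.00785), and with replicates 4 and 5 it was -0.12 (adjusted p = 0.289).

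Under treatment Pvr stood at 133, 154 and 151 normalized CPM at d10 and at 150, 130 and 145 at d14, overlapping the untreated tumors of d14. The log2 difference was 0.32 (SE 0.13, adjusted p = 0.344) at d10, or 0.43 (adjusted p = 0.166) against replicates 4 and 5, and -0.14 (SE 0.11, adjusted p = 0.39) at d14. Nectin2 stood at 105, 134 and 126 in treated d10 tumors and at 93.1, 85.3 and 87.0 in treated d14 tumors. The latter were just above the untreated tumors of that day, with a log2 difference of 0.36 (SE 0.12, adjusted p = 0.0465). That call was lost without replicate 2 or 3 of untreated d14 or any treated d14 tumor, with 0.26 to 0.42 (adjusted p of 0.0592 to 0.113), and in the fit of all 5 groups (adjusted p = 0.11). At d10 the Nectin2 difference was 0.03 (SE 0.16, adjusted p = 0.945), and -0.21 (adjusted p = 0.313) against replicates 4 and 5.

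The ratio of Pvr to Nectin2 per kilobase was 0.319 ± 0.048 (SD, n = 3) at d6, 0.582 ± 0.178 (n = 5) at d10 and 1.31 ± 0.30 (n = 3) at d14 in untreated tumors. The groups followed each other without overlap. Treated tumors had ratios of 0.687 ± 0.030 (n = 3) at d10 and 0.915 ± 0.040 (n = 3) at d14. By merged exons Pvr exceeded Nectin2 in untreated d14 tumors alone. By the longest transcript its mean was also above that of Nectin2 in treated tumors, at 50.3 against 44.5 normalized CPM per kilobase at d10 and 48.8 against 32.3 at d14. The log2 difference between untreated d14 and d10 was 1.20 (exact permutation p = 0.0179, adjusted p = 0.0893), and between treated and untreated d14 it was -0.50 (exact permutation p = 0.1).

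Vsir, which codes for VISTA, rose to d10 and fell to d14 in untreated tumors. It stood at 61.9, 79.1 and 66.7 normalized CPM at d6, at 115, 136, 88.0, 146 and 121 at d10 and at 58.9, 39.9 and 80.1 at d14. All 5 untreated d10 tumors were above all d6 and untreated d14 tumors, and the latter groups overlapped. The log2 change was 0.80 (SE 0.16, adjusted p = 0.00774) from d6 to d10 and -1.01 (SE 0.22, adjusted p = 0.0157) from d10 to d14. The rise was 0.72 (adjusted p = 0.0506) without replicate 1 of d6 and 0.72 (adjusted p = 0.00715) within the library set of d6. The fall was -1.01 (adjusted p = 0.0573) without replicate 1 and -0.80 (adjusted p = 0.066) without replicate 2 of d14. From d6 to d14 the log2 change was -0.21 (SE 0.21, adjusted p = 0.423), and -0.47 (adjusted p = 0.0375) without replicate 3 of d14.

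In treated tumors Vsir stood at 109, 114 and 118 normalized CPM at d10 and at 156, 144 and 120 at d14. The treated d14 tumors were all above the untreated tumors of that day and had the highest mean of the 5 groups, overlapping untreated d10. The log2 difference was 1.30 (SE 0.24, adjusted p = 0.00850) at d14, and it held when any single tumor was left out. At d10 it was -0.09 (SE 0.14, adjusted p = 0.778), and -0.21 (adjusted p = 0.292) against replicates 4 and 5. The treatment effects at the 2 days differed by 1.38 (SE 0.28, adjusted p = 0.00659), and by 1.5 (adjusted p = 0.00750) with replicates 4 and 5 as the untreated d10 tumors.

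Cd276, which codes for B7-H3, declined slowly and showed the least spread of the 9 genes. It stood at 87.9, 85.7 and 96.5 normalized CPM at d6, at 76.1, 67.0, 71.3, 66.5 and 73.6 at d10 and at 64.7, 60.0 and 60.7 at d14. The 3 untreated groups did not overlap. The log2 change was -0.35 (SE 0.10, adjusted p = 0.0339) from d6 to d10, -0.19 (SE 0.09, adjusted p = 0.170) from d10 to d14 and -0.54 (SE 0.08, adjusted p = 0.000635) over the whole span. The first step was lost without any d6 tumor or replicate 2 or 4 of d10, with -0.38 to -0.30 (adjusted p of 0.0600 to 0.135), and within the library set of d6 it was -0.31 (adjusted p = 0.0349). Treated tumors stood at 60.0, 60.4 and 62.7 at d10 and at 48.8, 51.6 and 58.6 at d14, with log2 differences of -0.22 (SE 0.09, adjusted p = 0.354) and -0.16 (SE 0.09, adjusted p = 0.202) from untreated tumors. Against replicates 4 and 5 of d10 the former was -0.18 (adjusted p = 0.282).

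Treated d14 tumors were also set beside untreated d10 tumors, a comparison in which day, treatment and, with 3 library sets, the set differ together. Here 3 members passed, against 27.7% of genes, and none with a fold change above 2 as well (7.83%). Cd274 was higher by 0.94 on the log2 scale (SE 0.17, adjusted p = 0.00551), and that call held when any single tumor was left out. Lgals9 (-0.49, SE 0.16, adjusted p = 0.0429) and Cd276 (-0.42, SE 0.10, adjusted p = 0.0155) were lower. The Lgals9 call was lost without replicate 3 or 5 of d10 or any treated tumor (-0.53 to -0.43, adjusted p of 0.0533 to 0.169), and the Cd276 call without replicate 1 or 2 of the treated tumors (-0.36 and -0.40, adjusted p of 0.0733 and 0.0765). Pdcd1lg2 and Vsir, which were higher in treated than in untreated tumors at d14, differed from untreated d10 by -0.18 (SE 0.23, adjusted p = 0.573) and 0.22 (SE 0.15, adjusted p = 0.310).

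The receptors of these ligands were read in the same libraries, as a list of 9 receptors and binding partners. From d6 to d10, 7 of the 9 passed and all 7 rose, where 10.5% of genes rose. Pdcd1, the gene of PD-1, rose by 3.15 (SE 0.27, adjusted p = 0.000176) on the log2 scale, from 4.04 ± 0.80 (SD, n = 3) to 36.1 ± 11.1 (n = 5) normalized CPM. Havcr2, the gene of TIM-3, rose by 2.82 (SE 0.21, adjusted p = 9.13e-05), while its ligand gene Lgals9 fell. Cd96 rose by 2.54, Cd226 by 1.59, Lag3 by 1.21, Tigit by 1.07 and Pvrig by 0.79, whereas Cd80 (-0.12) and Rgmb (0.52) did not pass. Lag3 (-1.07), Cd96 (-0.86) and Cd226 (-0.86) fell from d10 to d14, where 9.87% of genes did, and the other 6 did not pass. Over the whole span 6 of the 9 rose, where 25.5% of all genes did.

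Under anti CTLA-4 at d14, 6 of the 9 receptor genes were higher and none was lower, where 17.7% of all genes were higher and 14.8% lower. Pvrig was higher by 1.07 (SE 0.28, adjusted p = 0.0237) on the log2 scale, Lag3 by 0.99 (SE 0.31, adjusted p = 0.0431), Cd96 by 0.98 (SE 0.18, adjusted p = 0.00855) and Cd226 by 0.92 (SE 0.21, adjusted p = 0.0158). Pdcd1 was higher by 0.82 and Havcr2 by 0.55, and Tigit differed by 0.30 (adjusted p = 0.273). At d10 none passed by edgeR, and none had an unadjusted p below 0.05. The difference between the treatment effects passed for Cd96 (1.12, adjusted p = 0.00592) and Cd226 (1.04, adjusted p = 0.0184), where 17.7% of genes passed. Treated d14 and untreated d10 tumors differed in 1 of the 9, Havcr2, where 27.7% of genes passed.

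A list of 24 further genes of the B7, galectin, nectin and CEACAM families and other checkpoint ligands had 19 to 20 members with enough counts to test. From d6 to d10, 3 rose and 3 fell, where 10.5% and 7.03% of all genes did. Among them were Nectin1 (1.13, SE 0.22, adjusted p = 0.00823), Lgals3bp (-0.77, SE 0.16, adjusted p = 0.00906), a secreted binding partner of galectin 3, and Lgals8 (-0.64, SE 0.15, adjusted p = 0.0154). Between d10 and d14, 1 rose and 3 fell, where 9.80% and 9.87% of all genes did. Lgals7 (-1.75, SE 0.29, adjusted p = 0.00706) had the largest change. Under treatment at d14, 4 of 20 were higher and 4 lower, near the 17.7% and 14.8% of all genes. Lgals7 was higher by 1.26 (adjusted p = 0.0296), the cell adhesion gene Nectin4 by 1.25 (adjusted p = 0.0196) and Cd200, whose product restrains myeloid cells, by 1.05 (adjusted p = 0.00708). At d10 none of the 19 passed by edgeR, with 3 at an unadjusted p below 0.05, for which no share of all genes is given.

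A list of 19 genes of interferon gamma signaling and PD-L1 handling was read beside Cd274. From d6 to d10, 1 rose and 4 fell, where 10.5% and 7.03% of all genes did. Among the falls were Stat2 (-0.94, adjusted p = 0.0033), Myc (-0.81, adjusted p = 0.00155) and Irf9 (-0.61, adjusted p = 0.00219). Ifng itself fell from 28.3 ± 5.7 (SD, n = 3) normalized CPM at d6 to 6.38 ± 2.03 (n = 3) at d14 (log2 change -2.15, SE 0.24, adjusted p = 0.000170), over which span Cd274 rose. From d6 to d14, 3 of the 19 rose and 11 fell, where 25.5% of all genes rose and 26.0% fell. Treated d14 tumors stood at 12.7 ± 2.1 (n = 3) of Ifng, higher than untreated tumors by 1.06 on the log2 scale (SE 0.25, adjusted p = 0.0167), together with Ifngr1 (0.37, adjusted p = 0.0171) and Ifngr2 (0.36, adjusted p = 0.0394). In all, 5 of the 19 were higher and 2 lower under treatment at d14 (17.7% and 14.8% of all genes). At d10 none passed by edgeR, and 4 had an unadjusted p below 0.05, for which no share of all genes is given.

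Markers of the cell types that these tumors can hold moved with several of the results. The summed level of 8 macrophage markers, all detected, was 1228 to 1329 normalized CPM at d6, 1271 to 1943 at d10 and 664 to 904 at d14 in untreated tumors, and 1166 to 1393 at d10 and 1343 to 1672 at d14 in treated tumors. From d6 to d10 in untreated tumors the means of Adgre1 (96.2 to 71.8), Fcgr1 (89.6 to 59.9) and Itgam (144 to 129) were lower. Those of the other macrophage markers were higher. The sum was lowest in the 3 untreated d14 tumors, which also had the lowest Pdcd1lg2 levels and the lowest mean of Vsir, where replicate 3 (80.1) lay above the d6 tumors. Over the 17 tumors the correlation of log levels with this sum was r = 0.945 for Pdcd1lg2, r = 0.834 for Vsir and r = 0.249 for Cd274. After the group means were taken off, it was 0.89, 0.76 and 0.54. On that scale other marker sums had values of larger size for Vsir, T cell (0.83) and dendritic cell markers (0.81), and for Cd274, mesothelial and mesothelioma markers (-0.77). For Pdcd1lg2 the macrophage sum came closest, with fibroblast (0.86) and dendritic cell markers (0.83) next. These are descriptions over tumors that share groups and library sets, without a test, and the part of macrophage content in the changes was not tested.

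**Figure D4:**
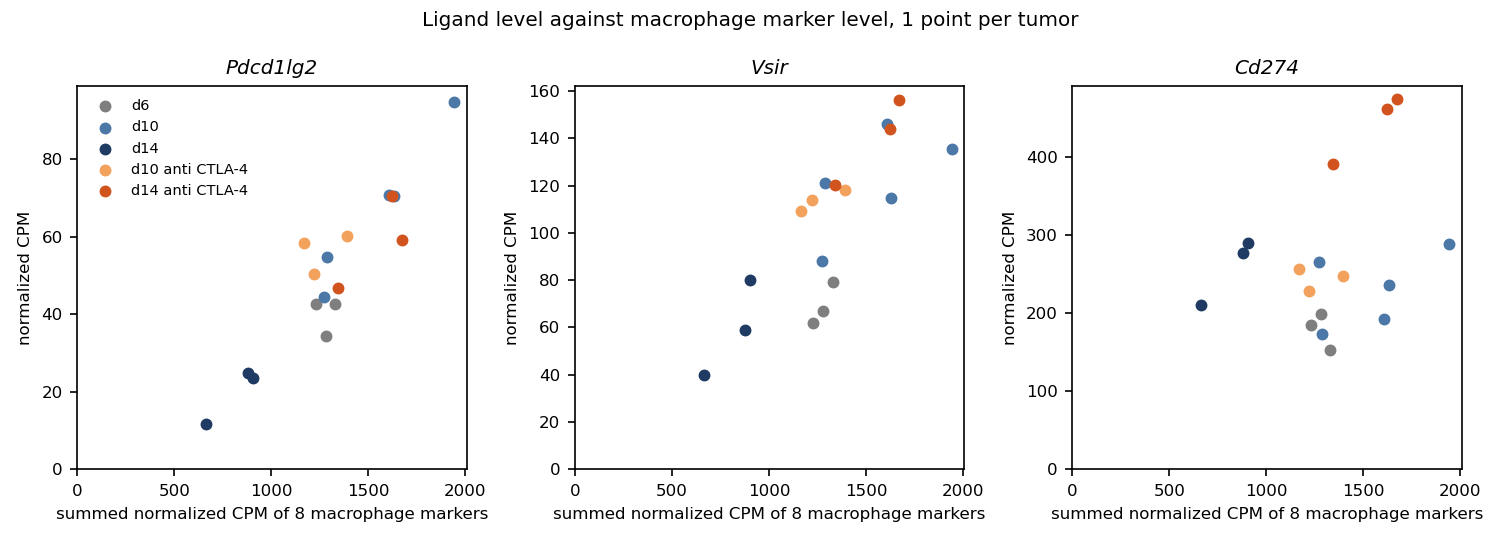
Level of Pdcd1lg2, Vsir and Cd274 in each tumor against the summed level of 8 macrophage markers, both in normalized CPM on linear axes from 0, colored by group. The untreated d14 tumors lie at the far left, with marker sums of 664 to 904, and are the lowest for Pdcd1lg2, while for Vsir they overlap the d6 tumors, and the treated d14 tumors lie above all the others for Cd274.

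T cell markers (7 of 7 detected) summed to 57.4 to 64.8 normalized CPM at d6, 249 to 338 at d10 and 100 to 185 at d14 in untreated tumors, and to 239 to 272 and 256 to 288 in treated tumors of d10 and d14. Among them Cd4 alone had a lower mean at d10 (7.58) than at d6 (9.90) in untreated tumors. Dendritic cell markers (7 of 7) summed to 45.1 to 73.2 in untreated d14 tumors and to 73.0 to 99.1 in treated ones. Itgax was the largest part of that sum, with means of 30.2 and 49.2, and Xcr1 alone went the opposite way (8.65 and 7.69). From d6 to d10 in untreated tumors the mean of Itgax rose from 51.0 to 92.3. Over that span the means of Flt3, Xcr1 and Ccr7 were lower and those of the rest higher. Mesothelial and mesothelioma markers (7 of 7) summed to 2751 to 2855 in untreated d14 tumors and to 1824 to 2060 in treated ones, where Cd274 was highest. Msln, Krt8, Krt18 and Krt19 carry that sum and were well expressed in all groups. The means of the other 3 markers went the opposite way between untreated and treated d14 tumors, from 11.5 to 32.2 normalized CPM for Wt1, from 5.74 to 15.3 for Upk3b and from 5.63 to 24.7 for Lrrn4. Fibroblast markers (5 of 5) summed to 1292 to 2299 and 2767 to 4216 in the same groups, and endothelial markers (5 of 5) to 85.0 to 104 and 138 to 165. Pancreatic acinar markers (6 of 6) summed to 3019, 3.79 and 1011 in the 3 treated d14 tumors and to no more than 2.47 in any other tumor. The treated tumor with 3.79 had a Cd274 level of 460, a Pdcd1lg2 level of 70.4 and a Vsir level of 144. In those with 3019 and 1011 the levels were 474 and 390 for Cd274, 59.1 and 46.8 for Pdcd1lg2 and 156 and 120 for Vsir. Liver markers stayed at or under 4.85. The part of the other markers in the ligand changes was not tested.

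Genes whose profile over the 17 tumors was most like that of a member were named by the highest Pearson correlation of log levels among 9551 genes. For Lgals9 these were Ube2l6 (r = 0.984), Irf7 (0.983) and Parp11 (0.978). Ube2l6 and Irf7 are known as interferon-stimulated genes, and the Lgals9 window printed above held the matches to the ISRE core. A link between these matches and the Lgals9 profile was not tested. For Vsir they were Il21r (0.984), Slc11a1 (0.978) and Laptm5 (0.975), and for Pdcd1lg2 they were Sod2 (0.970) and Gm2a (0.960). Slc11a1 and Laptm5 are known from phagocytes and other leukocytes. Cd274 was most like Cd300lf (0.953) and Cd55 (0.944), where Cd55 codes for a regulator of complement. Pvr was most like Atg14 (0.960), Ereg (0.959) and Adam9 (0.934), and Nectin2 was most like Lpcat4 (0.967), Shmt2 (0.963) and Plod3 (0.960). Lgals3 was most like Tspan3 (0.941), Cd276 most like Gins1 (0.957), and Ceacam1 had no gene above 0.779 (Asah2). After the group means were taken off, r was 0.868 to 0.924 for the genes named with Lgals9 and 0.918 to 0.958 with Vsir. It was 0.870 and 0.934 with Pdcd1lg2, 0.848 and 0.871 with Cd274, 0.848 to 0.969 with Nectin2 and 0.846 with Lgals3. With Pvr it was 0.617 to 0.799, with Cd276 0.465 and with Ceacam1 0.398 (Asah2). These correlations are over tumors that share library sets, and they carry no test.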

How the data were processed

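RNA of whole tumors was prepared with the KAPA RNA HyperPrep kit and sequenced as paired ends. Per the labels and the study's methods, the authors aligned reads with TopHat2 2.0.14 to GRCm38/mm10, retained uniquely mapped pairs and assigned them to Gencode vM21 genes with HTSeq. The strand setting is not given in the sources used here. The deposited values are raw read counts of 55450 genes in 17 libraries, grouped by their labels, with totals of 46371577 to 96759833.

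Counts were tested with edgeR 4.0.16 (quasi-likelihood, filterByExpr, TMM scaling, Benjamini-Hochberg adjustment over all genes tested) in R 4.3.3, with only the compared groups in a fit. The difference between treatment effects was an interaction contrast. Levels are TMM-normalized CPM over all libraries, and per kilobase of merged exons between genes. Alternatives were DESeq2 1.42.0, no TMM, other filters, all 5 groups in one fit, a replicate block, a fold change above 2 as well, leaving out each tumor, and parts of the untreated d10 group. The fits were tested on simulated data. P-values measure the spread between tumors. Opposite-strand genes share exon bases with Cd274 (511), Cd276 (416) and Nectin2 (135) and reached at most 49 counts. As the strand setting is not given, these low counts do not show whether member reads in the shared bases went uncounted.

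The members and lists were chosen with earlier results of these data known. The text names all 9 members, receptors that pass, the 3 largest passing changes of each further list, and for each member up to 3 genes of closest profile, of which some are not reported here.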

Additional observations from a re-analysis of the deposited data

Results flagged for a closer look

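Anti CTLA-4 was tested at 2 days, and for 2 of the 9 ligand genes the treatment effects differed between them in a test of the difference itself (edgeR's quasi-likelihood interaction contrast, adjusted over 18574 genes). For Pdcd1lg2 the effect at d14 exceeded that at d10 by 1.86 on the log2 scale (SE 0.38, adjusted p = 0.00659), from 1.62 at d14 and -0.25 at d10. For Vsir it did so by 1.38 (SE 0.28, adjusted p = 0.00659), from 1.30 and -0.09. Over all genes tested, 17.7% passed this test in either direction and 11.9% had an effect that was significantly higher at d14. The count of 2 in 9 lies near the former share and is not read as a result about the members. All 3 treated tumors were above all 3 untreated tumors at d14 for both genes, and the groups overlapped at d10. No tumor stood far from the others of its group among the 9 ligand genes in the untreated d10 group, the only group with enough tumors for that check.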

How the results depend on the processing

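Of 1053 log2 changes of single ligand genes recomputed under alternatives, the added fold threshold aside, 920 kept their direction and side of the threshold, 64 lost a call, 44 gained one and 25 changed sign, none of them a value that passed before or after. Pdcd1lg2 (d10 to d14, treatment at d14, interaction), Vsir (treatment at d14, interaction) and Lgals9 (d6 to d10 and d6 to d14) kept their calls under every alternative run. The members passing ranged over the leave-one-out fits from 2 to 6 (d6 to d10), 1 to 5 (d10 to d14), 6 to 7 (d6 to d14), 3 to 4 (treatment at d14), 0 to 0 (treatment at d10), 1 to 6 (treated d14 against untreated d10) and 2 to 3 (interaction), with fewer samples in each. With a fold change above 2 required as well, 1, 2, 2, 2 and 0 members passed from d6 to d10, d10 to d14, d6 to d14, under treatment at d14 and between treated d14 and untreated d10. For that last comparison 6 passed by DESeq2, 7 in the fit of all 5 groups and 6 with replicates 4 and 5 of d10. With replicates 1 to 3 of d10, 5 passed in the interaction. The shares of all genes passing in these fits are not given here, so the counts are not read as a result about the members. Replicate numbers did not pair the tumors: deviations of same-numbered tumors correlated at -0.309 to 0.24 (10 of 30 pairs over 0.1) and of others at -0.468 to 0.494 (16 of 84). With the replicate number as a block, which also drops replicates 4 and 5 of d10, 2 members passed from d10 to d14, 4 under treatment at d10 and 4 in the interaction, and the count stayed within 1.5 times elsewhere. Of all genes, 3 passed for treatment at d10 by edgeR against 463 by DESeq2, 5451 with the block, 5020 with replicates 1 to 3 and 108 with replicates 4 and 5, 133 in the 5-group fit, 49 without the filter and 0 to 174 over the leave-one-out fits. From d6 to d10, 2953 passed, against 5006 in the 5-group fit, 4456 with replicates 1 to 3, 7877 with replicates 4 and 5 and 1263 to 3447 over the leave-one-out fits. From d10 to d14, 3473 passed, against 6535, 5924, 5920 and 624 to 4373 in the same fits. Over the leave-one-out fits the counts were 2465 to 6788 for treatment at d14 (5853 in all) and 1759 to 5733 between treated d14 and untreated d10 (5004). They were 7332 to 8620 from d6 to d14 (8835) and 1807 to 4206 in the interaction (3289).

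Changes of sign were confined to differences that did not pass. With replicates 1 to 3 of d10, treatment at d10 gave -0.13 for Cd274 and 0.16 for Lgals9, and d10 to d14 gave -0.031 and 0.0093. With replicates 4 and 5 the values were -0.022 for Cd274 from d6 to d10, -0.21 for Nectin2 under treatment at d10, and 0.094 for Lgals3 and 0.041 for Lgals9 in the interaction. With the replicate block they were -0.040 for Cd274 and 0.0072 for Lgals9 from d10 to d14, and -0.13 for Cd274, 0.16 for Lgals9 and 0.013 for Vsir under treatment at d10. Without TMM, Lgals3 was 0.0020 in the interaction. Leaving out 1 tumor in turn gave ranges across 0 for treatment at d10 of -0.023 to 0.17 (Cd274), -0.12 to 0.079 (Lgals9) and -0.061 to 0.12 (Nectin2), for d6 to d14 of -0.028 to 0.088 (Lgals3) and -0.47 to 0.0098 (Vsir), and for the interaction of -0.13 to 0.052 (Lgals3) and -0.047 to 0.11 (Cd276). The cause was not tested. All members had at least 286 counts in every library.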
